A study of Mus musculus with 4 samples.

Results

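The 10 genes of the core circadian clock loop were measured in isolated mouse cardiomyocytes. They were found by gene symbol among the 22322 genes of the count tables, and all 10 had enough reads to be tested. The activators Arntl, Clock and Npas2 make up 3 of them, and the repressors Per1, Per2, Per3, Cry1, Cry2, Bhlhe40 and Bhlhe41 make up 7. The libraries were 2 from sham-operated mice and 2 from mice after transverse aortic constriction (TAC), a narrowing of the aorta that puts a pressure load on the left ventricle. All were male mice operated at an age of 2 months, and the hearts were taken at 14 weeks, a time the methods of the study give as time after surgery for the echocardiography and also as the age of the mice. Neither the strain nor the time of day of heart collection is given in the sources used here, and the labels name no transgene. Each library was made from a share of the myocytes of 1 heart, released with enzymes on a Langendorff system, which perfuses the heart backwards from the aorta.

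The circadian clock is a feedback loop of transcription found in most cells, the cardiomyocyte included. The proteins of Arntl (also called Bmal1) and Clock, or of its relative Npas2, pair up and bind E-box sequences in the promoters of the Per, Cry and Bhlhe genes. The PER and CRY proteins then gather in the nucleus and silence the pair that switched them on, while BHLHE40 and BHLHE41 compete for the same E-boxes. A second loop of nuclear receptors, REV-ERB and ROR, acts on Arntl through ROR elements, and the PAR bZIP factors such as DBP act through D-boxes. In the heart, as in other tissues, transcripts of Arntl and of the Per genes peak at nearly opposite times of day, with Cry1 later than the Per genes.

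Total counts ran from 24237777 to 32118323 per library, and the pair of libraries of each group differed by more than sampling noise, with a chi-square of 8.08 per degree of freedom for sham and 26.7 for TAC. The 13 mitochondrial genes took 47.42% of the counts in TAC 1 and between 39.84% and 40.85% in the other libraries. Defining cardiomyocyte markers such as Myh6, Tnnt2 and Ryr2 were present in all 4 libraries, with a summed level of 63740 to 71670 CPM (counts scaled to the library size) over the 9 genes listed. Among the clock genes, sham 2 stood apart: it was the library at the outer end of the sham side for 9 of 10 genes, the exception being Bhlhe40. Values with and without sham 2 are therefore given for each gene.

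Promoter sequences are shown for the genes whose window held one of the clock elements named above, since Per3 and Cry1, the members that passed the test in opposite directions, are among them. RefSeq windows (GRCm38.p6) of 250 bases before to 50 bases after a start site were found for 8 of the 10 genes, 12 windows in all, and 6 of these held a match. Per2 and Bhlhe40 had no window. The letters searched on both strands were the E-box CACGTG, the E-prime box CACGTT, the D-boxes TTATGTAA and TTACGTAA, and the ROR elements TAGGTCA and TGGGTCA, none of which contains another. Capitals mark the matches, and each sequence is written 5′ to 3′ on the strand of its gene. The Arntl window at chr7:113207261-113207560 (plus strand) held a ROR element, the Per1 window at chr11:69098699-69098998 (plus strand) an E-box, and the Per3 window at chr4:151044616-151044915 (minus strand) a D-box at 2 places. The Cry1 window at chr10:85185005-85185304 (minus strand) held an E-prime box, which reads AACGTG on this strand, and an E-box. The Cry2 window at chr2:92434020-92434319 (minus strand) held an E-prime box in the same orientation, and the Bhlhe41 window at chr6:145865371-145865670 (minus strand) an E-box.
Arntl: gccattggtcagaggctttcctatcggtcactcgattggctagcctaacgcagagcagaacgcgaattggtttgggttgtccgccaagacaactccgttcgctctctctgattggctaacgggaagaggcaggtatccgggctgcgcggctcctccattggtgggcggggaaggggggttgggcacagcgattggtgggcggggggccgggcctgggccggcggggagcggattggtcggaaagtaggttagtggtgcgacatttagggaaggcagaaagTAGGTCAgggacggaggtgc
Per1: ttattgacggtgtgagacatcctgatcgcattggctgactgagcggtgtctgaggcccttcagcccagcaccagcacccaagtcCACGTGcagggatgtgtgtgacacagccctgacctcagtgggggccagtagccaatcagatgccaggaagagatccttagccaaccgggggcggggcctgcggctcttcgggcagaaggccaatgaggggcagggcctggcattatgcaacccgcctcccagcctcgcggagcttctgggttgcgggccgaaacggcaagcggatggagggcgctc
Per3: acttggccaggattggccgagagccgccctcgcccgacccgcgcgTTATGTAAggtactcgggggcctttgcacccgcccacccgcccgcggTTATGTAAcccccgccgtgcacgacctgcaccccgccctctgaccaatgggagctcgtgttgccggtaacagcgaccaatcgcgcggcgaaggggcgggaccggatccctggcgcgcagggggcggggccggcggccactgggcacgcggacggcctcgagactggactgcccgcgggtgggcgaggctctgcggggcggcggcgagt
Cry1: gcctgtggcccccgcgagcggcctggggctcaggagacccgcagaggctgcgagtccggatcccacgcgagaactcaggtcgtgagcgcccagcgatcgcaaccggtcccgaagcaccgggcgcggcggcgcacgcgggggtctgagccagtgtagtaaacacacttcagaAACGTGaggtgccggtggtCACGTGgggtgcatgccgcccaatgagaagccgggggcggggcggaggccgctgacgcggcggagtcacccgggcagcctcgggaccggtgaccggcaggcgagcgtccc
Cry2: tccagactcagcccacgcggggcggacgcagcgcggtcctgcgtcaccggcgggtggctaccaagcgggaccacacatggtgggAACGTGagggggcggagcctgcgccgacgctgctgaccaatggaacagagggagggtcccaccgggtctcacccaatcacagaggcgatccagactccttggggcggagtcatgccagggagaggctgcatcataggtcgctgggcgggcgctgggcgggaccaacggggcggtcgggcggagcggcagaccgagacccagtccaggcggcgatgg
Bhlhe41: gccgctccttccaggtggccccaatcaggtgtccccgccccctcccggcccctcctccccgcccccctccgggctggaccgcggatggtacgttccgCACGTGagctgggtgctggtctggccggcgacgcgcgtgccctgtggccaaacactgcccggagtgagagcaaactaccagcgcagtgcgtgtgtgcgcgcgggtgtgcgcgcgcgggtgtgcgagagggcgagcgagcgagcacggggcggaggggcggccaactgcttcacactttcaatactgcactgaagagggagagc

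In bases from the start site, the Arntl ROR element began at 30, the Per1 E-box at -166, the Per3 D-boxes at -205 and -158, the Cry1 E-box at -60 and its E-prime box at -79, the Cry2 E-prime box at -166, and the Bhlhe41 E-box at -153. Among 32851 promoter windows of the same length, the E-box was present in 7.15%, the E-prime box in 4.68%, the D-box TTATGTAA in 0.938%, the D-box TTACGTAA in 0.119%, and the ROR elements TAGGTCA in 2.61% and TGGGTCA in 3.98%. None of the letters was found in the 3 windows of Clock, in the window of Npas2, in the other Arntl window or in the other Per1 window. These matches describe the sequence and are not evidence of binding in these cells.

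The comparison of TAC with sham asked how each arm of the loop stood in cardiomyocytes of the pressure-loaded heart. Period gene Per3 fell 2.61-fold and cryptochrome gene Cry1 rose 1.69-fold in TAC, and no other member passed an adjusted p of 0.05 in edgeR's quasi-likelihood test. All 3 activators were higher in both TAC libraries than in both sham libraries, and 6 of the 7 repressors were lower, Cry1 being the exception. Groups without overlap were common in these data, at 60.1% of the 12499 genes tested, so the absence of overlap in 10 of 10 members is to be read against that share. The members called were 1 higher and 1 lower, where 2.58% of all genes were called higher and 2.43% lower. At an unadjusted p under 0.05 all 10 members passed, against 27.5% of all genes. The median log2 fold change was 0.82 for the activators and -0.62 for the repressors, beside -0.0078 for all genes tested.

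**Figure D1:**
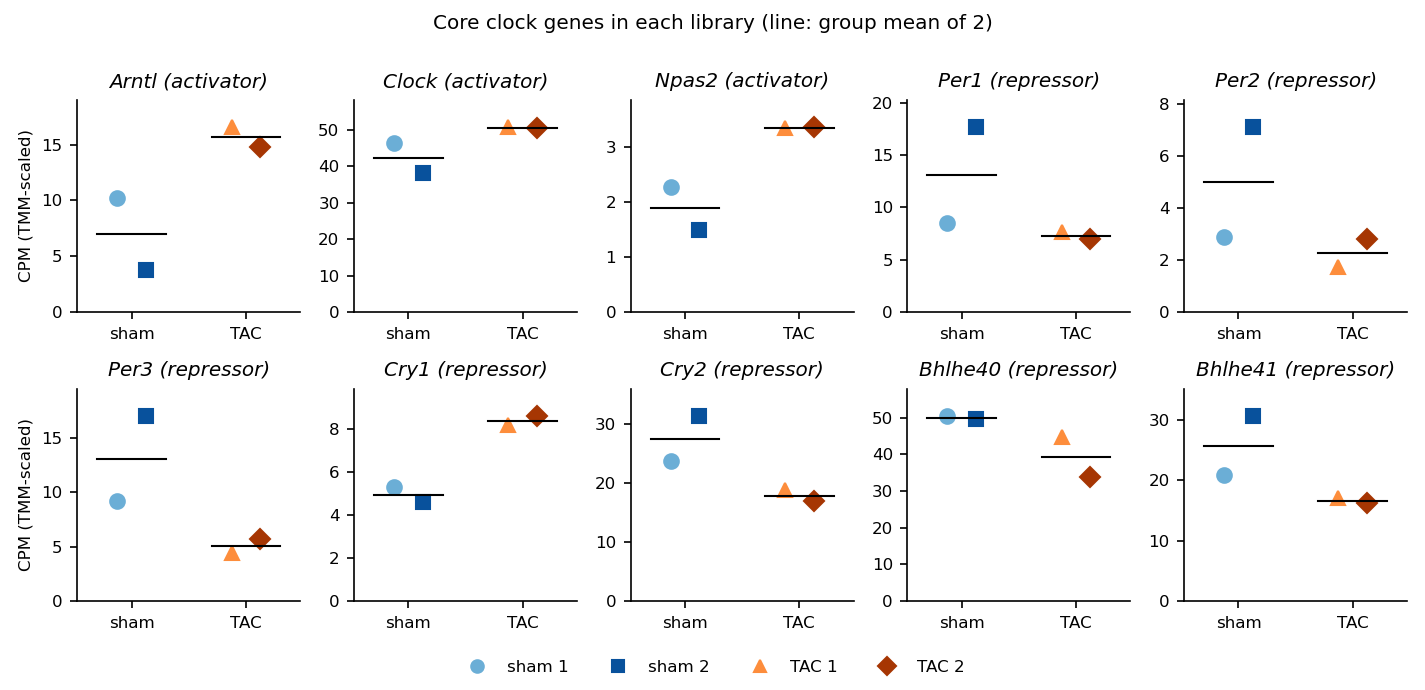
Level of each core clock gene in CPM after TMM scaling (vertical axes start at 0 and differ between panels), with 1 symbol per library and a line at the mean of the 2 libraries of a group. The TAC symbols of Arntl, Clock, Npas2 and Cry1 lie above both sham symbols, those of the other 6 genes lie below, and the sham symbols are far apart for Arntl, Per1, Per2 and Per3.

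Arntl (ENSMUSG00000055116, chr7:113207465-113314126, plus strand) encodes BMAL1, the activator that the loop cannot run without. Its level was 10.21 CPM in sham 1, 3.75 CPM in sham 2, 16.53 CPM in TAC 1 and 14.80 CPM in TAC 2, from 323, 108, 461 and 362 counts. Both TAC libraries were above both sham libraries, but the sham pair differed 2.72-fold while the TAC libraries were close together. The group means were 6.98 ± 4.56 CPM (SD, n = 2) in sham and 15.67 ± 1.22 in TAC, a log2 fold change of 1.16 ± 0.37 (SE) that did not pass in edgeR (adjusted p = 0.102). The spread between the sham libraries decided this value: without sham 1 the log2 fold change was 2.06 (adjusted p = 3.88e-06), and without sham 2 it was 0.62 (adjusted p = 0.0522). Over the 13 alternative settings and left-out libraries its adjusted p ran from 3.88e-06 to 0.329, with 3 under the threshold, and its log2 fold change stayed above 0.

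Clock (ENSMUSG00000029238, chr5:76209868-76304792, minus strand), the usual partner of BMAL1, varied least of the activators. It stood at 46.33 CPM in sham 1, 38.09 CPM in sham 2, 50.57 CPM in TAC 1 and 50.42 CPM in TAC 2, so that the TAC libraries were nearly equal and sham 1 lay closer to them than sham 2. The log2 fold change was 0.26 ± 0.10 and did not pass in edgeR (adjusted p = 0.165). With sham 2 left out it was 0.13 (adjusted p = 0.568), and the FPKM values of Clock, given further on, overlapped between the groups.

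Npas2 (ENSMUSG00000026077, chr1:39193731-39363236, plus strand) encodes a relative of CLOCK that can take its place beside BMAL1. It had the fewest reads of the members over the 4 libraries together, with 72, 43, 93 and 82 counts, or 2.27 CPM in sham 1, 1.49 CPM in sham 2, 3.33 CPM in TAC 1 and 3.35 CPM in TAC 2. As with Clock, the TAC libraries were alike and sham 2 was lowest. The log2 fold change of 0.82 ± 0.27 did not pass in edgeR (adjusted p = 0.112), and it was 1.16 without sham 1 and 0.56 without sham 2. The transcript length implied by the deposited count and FPKM of Npas2 differed 1.38-fold between libraries, so its FPKM and its count do not scale together.

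The Per genes encode the PERIOD proteins, the part of the repressor complex that is made and destroyed each day. Per1 (ENSMUSG00000020893, chr11:69095217-69109960, plus strand), whose window is shown above with an E-box, stood at 8.50 CPM in sham 1, 17.62 CPM in sham 2, 7.60 CPM in TAC 1 and 6.95 CPM in TAC 2. Sham 1 was thus nearer to the TAC libraries than to sham 2, from which it differed 2.07-fold. The log2 fold change was -0.84 ± 0.31 (adjusted p = 0.136, edgeR). Left without sham 1 it was -1.27 (adjusted p = 0.000213), and without sham 2 it was -0.22 (adjusted p = 0.594). The implied length of Per1 also differed between libraries, by 1.32-fold.

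Per2 (ENSMUSG00000055866, chr1:91415982-91459324, minus strand) was also highest in sham 2, at a lower count of 91, 204, 48 and 69 reads. Its level was 2.88 CPM in sham 1, 7.09 CPM in sham 2, 1.72 CPM in TAC 1 and 2.82 CPM in TAC 2. Sham 1 and TAC 2 were almost equal, so the groups were barely apart. The sham pair differed 2.46-fold and the TAC pair 1.64-fold, and the log2 fold change of -1.13 ± 0.44 did not pass in edgeR (adjusted p = 0.151). Omitting sham 1 gave -1.65 (adjusted p = 0.00282), and omitting sham 2 gave -0.34 (adjusted p = 0.637).

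Per3 (ENSMUSG00000028957, chr4:151003652-151044665, minus strand) fell in TAC. It stood at 9.23 CPM in sham 1, 16.99 CPM in sham 2, 4.38 CPM in TAC 1 and 5.69 CPM in TAC 2, so that even the lower sham library was above the higher TAC library by more than the TAC pair differed. Its means were 13.11 ± 5.49 CPM in sham and 5.03 ± 0.93 in TAC (SD, n = 2 each), with a log2 fold change of -1.38 ± 0.29 (adjusted p = 0.0441, edgeR). Without sham 2 the log2 fold change was -0.87 and the adjusted p rose to 0.0502. Without TAC 1 they were -1.20 and 0.116, while without sham 1 and without TAC 2 the call held (adjusted p = 2.15e-05 and 0.0226). Of the 13 alternatives, 8 called Per3, with adjusted p from 2.15e-05 to 0.116.

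The Cry genes encode the cryptochromes, the repressors that bind the activator pair directly, and their 2 transcripts lay on opposite sides of the comparison. Cry1 (ENSMUSG00000020038, chr10:85131700-85185064, minus strand) rose in TAC: it stood at 5.31 CPM in sham 1, 4.59 CPM in sham 2, 8.18 CPM in TAC 1 and 8.59 CPM in TAC 2, from 168, 132, 228 and 210 counts. Libraries of 1 group lay close together, with a sham pair 1.16-fold apart, and the means were 4.95 ± 0.51 CPM in sham and 8.38 ± 0.29 in TAC (SD, n = 2 each). The log2 fold change was 0.76 ± 0.16 (adjusted p = 0.0423, edgeR). It changed little when a library was left out, from 0.66 without sham 2 to 0.87 without sham 1, but the call was kept only without sham 1 (adjusted p = 0.0433) and lost without sham 2 (0.108), TAC 1 (0.0871) or TAC 2 (0.0507). Of the 13 alternatives, 4 called Cry1, with adjusted p from 0.00677 to 0.209.

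Cry2 (ENSMUSG00000068742, chr2:92403646-92434043, minus strand) lay on the other side, at 23.70 CPM in sham 1, 31.24 CPM in sham 2, 18.76 CPM in TAC 1 and 16.93 CPM in TAC 2. The log2 fold change of -0.62 ± 0.14 just missed the threshold in edgeR (adjusted p = 0.0544) and passed it in 6 of the 13 alternatives, over which the adjusted p ran from 0.00196 to 0.132. Without sham 2 the log2 fold change was -0.40 (adjusted p = 0.132). Exons of Cry2 share 295 of their 6320 bases with D930015M05Rik on the other strand. The labels do not say whether counting used strand, so reads within these shared bases cannot be assigned with certainty. The per-length level of Cry1 relative to Cry2 was 0.292 and 0.193 in sham 1 and sham 2, and 0.573 and 0.665 in TAC 1 and TAC 2, higher in both TAC libraries than in both sham libraries.

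Bhlhe40 and Bhlhe41 (also called Dec1 and Dec2) encode basic helix-loop-helix repressors that occupy E-boxes. Bhlhe40 (ENSMUSG00000030103, chr6:108660629-108666925, plus strand) was the only member for which the sham libraries were nearly equal, at 50.34 CPM in sham 1 and 49.56 in sham 2, and for which the TAC pair was the wider one, at 44.65 in TAC 1 and 33.86 in TAC 2. Its log2 fold change of -0.35 ± 0.13 did not pass in edgeR (adjusted p = 0.136). Here TAC 2 decided the size, since the log2 fold change was -0.56 without TAC 1 (adjusted p = 0.0329) and -0.16 without TAC 2 (adjusted p = 0.324). It was -0.35 without sham 2 (adjusted p = 0.197).

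Bhlhe41 (ENSMUSG00000030256, chr6:145858243-145865558, minus strand) followed the Per genes, at 20.83 CPM in sham 1, 30.62 CPM in sham 2, 17.14 CPM in TAC 1 and 16.19 CPM in TAC 2. The sham pair differed 1.47-fold and the TAC libraries were alike. The log2 fold change of -0.62 ± 0.18 did not pass in edgeR (adjusted p = 0.0814), and it was -0.88 without sham 1 (adjusted p = 0.000889) and -0.32 without sham 2 (adjusted p = 0.234). Bhlhe41 shares 1280 of its 6720 exonic bases with the unverified model Gm43909 on the other strand, Bhlhe40 shares 118 with 0610040F04Rik, and Arntl shares 33 with Gm45355. Reads within these shared bases have the same limit as for Cry2.

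**Figure D2:**
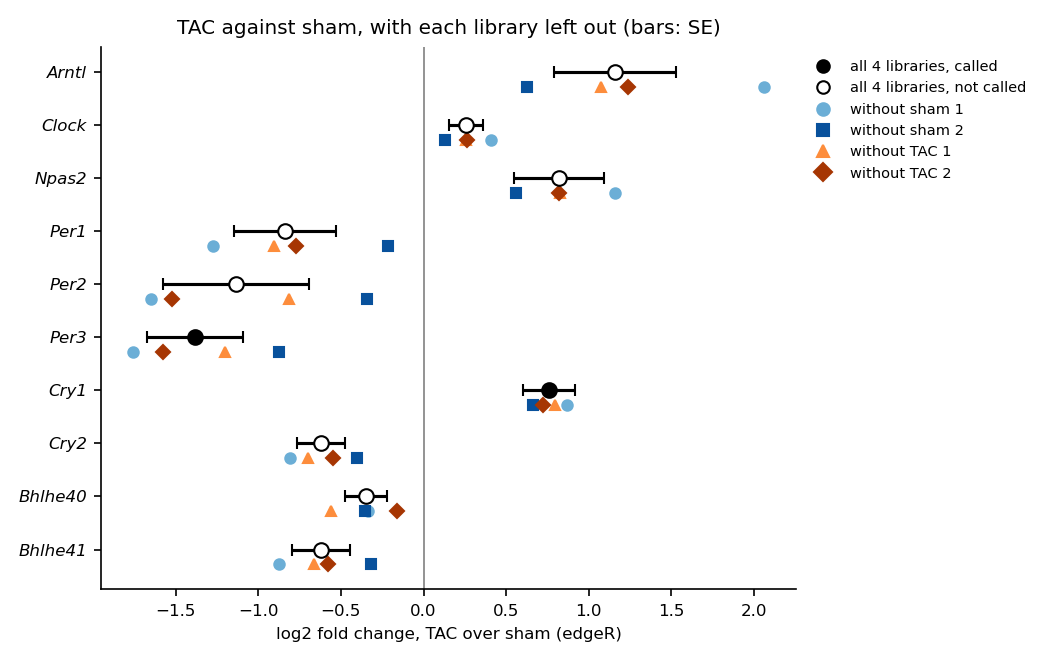
Log2 fold change of TAC over sham for each core clock gene from edgeR, with its SE as a bar (filled circle: called at an adjusted p under 0.05; open circle: not called), and below it the values with each library left out. Cry1 (0.76) and Per3 (-1.38) are filled, and leaving out sham 2 moves Arntl, Per1, Per2 and Per3 toward 0 while leaving out sham 1 moves them away from it.

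Across the loop, the count of members called thus depended on which library was left out. Without sham 1 it was 7 of 10 (Arntl, Per1, Per2, Per3, Cry1, Cry2 and Bhlhe41), where 4.55% of all genes were called. Without sham 2 it was 0 of 10 in edgeR, where 5.80% of all genes were called, and 5 of 10 had an unadjusted p under 0.05, against 22.2% of all genes. Without TAC 1 only Bhlhe40 was called, against 2.34% of all genes, and without TAC 2 only Per3, against 10.3% of all genes. All 10 members kept the direction of their fold change in each of the 13 alternatives. Leaving out sham 2 or TAC 1 thus removed the calls of both Per3 and Cry1, and leaving out TAC 2 removed that of Cry1.

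The sham libraries were compared directly to show how far sham 2 lay from sham 1. Arntl, Npas2, Per1, Per2 and Per3, 5 of the 10 members, differed more than 1.5-fold between the sham libraries, with Arntl and Npas2 lower and the Per genes higher in sham 2. Among 10230 genes with 40 or more counts in every library, 2.86% differed as much. Other lists described further on did so too, with 12 of 16 immediate early, 8 of 8 macrophage, 4 of 10 second loop and 4 of 10 glucocorticoid response genes past this fold between the sham libraries, whatever their counts. The fold was passed by 2 of 8 fibroblast, 2 of 8 mural and 1 of 8 clock-controlled heart genes, and by 0 of 8 endothelial, 0 of 9 cardiomyocyte and 0 of 13 clock protein modifier genes. Between the TAC libraries, 1 of the 10 members (Per2) passed this fold, against 4.27% of the same genes. The directions in which sham 2 departed from sham 1 were those in which sham as a group departed from TAC, except for Bhlhe40.

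**Figure D3:**
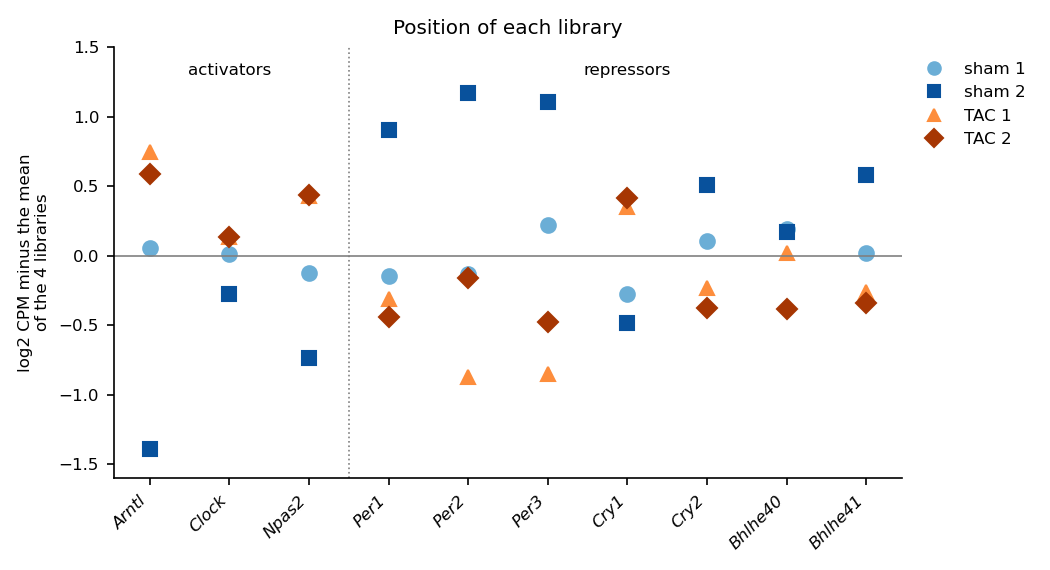
Log2 CPM of each core clock gene in each library minus the mean of the 4 libraries. Sham 2 lies at the outer end of the sham side for 9 of 10 genes, from -1.39 for Arntl to 1.17 for Per2, while sham 1 lies between sham 2 and the TAC libraries for those genes.

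As a description without a test, the mean log2 CPM of the 3 activators minus that of the 7 repressors was -0.19 and -1.53 in sham 1 and sham 2, and 0.58 and 0.47 in TAC 1 and TAC 2. The TAC libraries lay close together and the sham libraries further apart than sham 1 was from either TAC library. Without Cry1 among the repressors the order was the same, at -0.38, -1.85, 0.54 and 0.43. Per length, Arntl stood at 2.32 times Per3 and 0.473 in sham 1 and sham 2, and 8 and 5.47 in TAC 1 and TAC 2. Arntl relative to Clock was 0.647, 0.288, 0.972 and 0.844 per length in the same order of libraries.

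Levels of different genes were compared per transcript length, in FPKM. In sham, Bhlhe40 had the highest mean at 17.89 FPKM, followed by Cry2 at 7.37 and Clock at 5.49. The values of Clock, Bhlhe41 (4.54), Per1 (4.21), Arntl (2.67), Per3 (2.34) and Cry1 (1.75) then overlapped each with the next, so neighbours in this order were not resolved, although Clock was above Arntl, Per3 and Cry1 in both sham libraries. Per2 (0.90) and Npas2 (0.64) were lowest and overlapped each other. In TAC, Bhlhe40 was again highest at 11.71 FPKM and Clock followed at 5.75. Arntl, sixth in sham, was now next at 5.18 and above Cry2 at 4.20 in every TAC library. Bhlhe41 (2.69), Cry1 (2.60) and Per1 (2.19) overlapped each with the next, and Npas2 (1.19), Per3 (0.80) and Per2 (0.38) formed the lower end without overlap. Clock was the only member whose FPKM overlapped between sham and TAC, at 6.09 and 4.89 in sham and 5.27 and 6.22 in TAC.

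**Figure D4:**
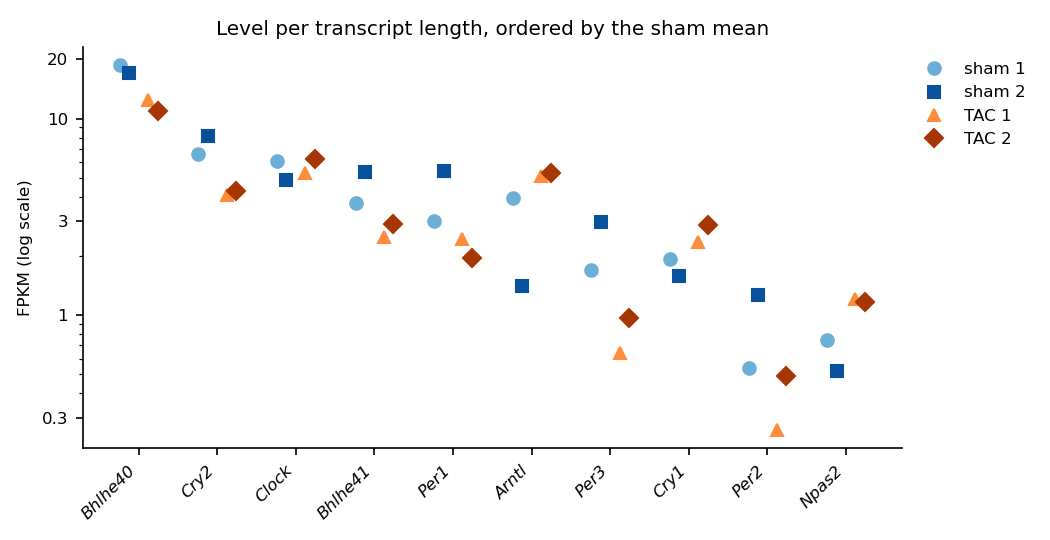
FPKM of each core clock gene on a log axis in each library, ordered by the sham mean. Bhlhe40 is highest in all 4 libraries (10.97 to 18.67 FPKM), and the order of Arntl, Per3 and Per2 relative to their neighbours differs between sham and TAC.

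Some genes of the second loop and the clock's output also differed, and among those reported Dbp and Nr1d2 fell and Nfil3 rose. Others of the list did not pass in edgeR, among them Nr1d1, Tef, Hlf and Ciart (adjusted p = 0.154, 0.236, 0.0696 and 0.197). Dbp, the PAR bZIP factor whose promoter is a textbook target of the activator pair, stood at 32.77 CPM in sham 1, 57.72 CPM in sham 2, 4.81 CPM in TAC 1 and 10.80 CPM in TAC 2, and fell by 2.55 ± 0.38 on the log2 scale (adjusted p = 0.0161, edgeR). The log2 fold change of Dbp was -2.065 without TAC 1 and -3.229 without TAC 2. Nfil3, a repressor of D-box genes, stood at 6.04, 4.52, 23.17 and 11.78 CPM and rose by 1.73 ± 0.31 (adjusted p = 0.0283, edgeR). The REV-ERB beta gene Nr1d2, at 83.43, 98.66, 48.63 and 55.62 CPM in the same order, fell by 0.80 ± 0.11 (adjusted p = 0.0121, edgeR). Sham 2 was again beyond sham 1 for each of these 3 genes. Ciart, a repressor of the activator pair, was also highest in sham 2, with 1.74 CPM in sham 1, 7.19 CPM in sham 2, 1.79 CPM in TAC 1 and 1.80 CPM in TAC 2. Its sham 1 value lay just below both TAC libraries, so its groups overlapped.

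Of 14 genes that act on clock proteins, namely kinases, ubiquitin ligases and partners, 13 were tested and 0 were called in edgeR, DESeq2 or limma voom, with 3 at an unadjusted p under 0.05 in edgeR, where 27.5% of all genes passed. One gene was called without sham 1, and 2 were called without the low-count filter. Fbxw11, a ubiquitin ligase subunit for PER proteins, had the lowest adjusted p (log2 fold change 0.36, adjusted p = 0.0525), followed by the casein kinase 2 subunit Csnk2b (0.24, adjusted p = 0.102). Of 8 heart genes known to follow the clock, 1 passed in edgeR, where 5.01% of all genes were called. An unadjusted p under 0.05 in edgeR was reached by 2 of the 8, against 27.5% of all genes. Sham and TAC libraries did not overlap for 5 of the 8, against 60.1% of all genes. With no low-count filter 2 were called, beside 10.5% of all genes. The gene that passed was Kcnh2, a potassium channel gene. It stood at 71.23, 86.53, 38.16 and 39.14 CPM in sham 1, sham 2, TAC 1 and TAC 2. Kcnh2 fell by 1.03 ± 0.11 (adjusted p = 0.00492, edgeR).

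Other gene groups also differed between the groups of libraries, and their values are set beside the clock genes. Per1 and Per2 also respond to stress signals and glucocorticoids. Of 16 immediate early genes, 11 fell in edgeR, where 2.43% of all genes were called lower. Fos (-2.66), Egr1 (-2.60) and Fosb (-2.51) had the largest log2 fold changes, followed by Ier2 (-2.25), Junb (-1.99) and Zfp36 (-1.93). Their summed level was 1150 CPM in sham 1, 683 CPM in sham 2, 295.5 CPM in TAC 1 and 283.9 CPM in TAC 2, so that it was highest in sham 1, whereas Per1, Per2 and Per3 were highest in sham 2. Fosb depended on single libraries, with -1.37 without sham 1 and an adjusted p of 0.114 without TAC 1. Of 10 glucocorticoid response genes, 6 were lower and 4 higher in TAC, with a median log2 fold change of -0.25. Cdkn1a and Ddit4 rose in edgeR (log2 fold changes 0.88 and 1.21), where 2.58% of all genes were called higher. Between 1 and 5 of them were called when a library was left out, and the call of Cdkn1a was lost without TAC 1 (adjusted p = 0.124). The sum over this list was 285 CPM in sham 1, 352.4 CPM in sham 2, 308.9 CPM in TAC 1 and 281.3 CPM in TAC 2, highest in sham 2, although Sgk1, Cdkn1a, Errfi1 and Ddit4 were lower in sham 2 than in sham 1.

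Markers of non-myocytes were lower in TAC, with 3 of 8 endothelial (Cdh5, Egfl7 and Esam), 3 of 8 fibroblast (Dcn, Lum and Dpt) and 1 of 8 mural genes (Pdgfrb) called lower. Among all genes tested, 2.43% were called lower. Which genes of these lists passed depended strongly on the library left out, and the sizes moved too. The log2 fold change of Cdh5 was -0.69 without TAC 1 and -1.02 without TAC 2. In the same order it was -0.83 and -1.74 for Dpt, and -0.64 and -1.12 for Pdgfrb. Of 8 macrophage genes 0 were called in edgeR, DESeq2 or limma voom with all libraries. Without the low-count filter 4 were called, beside 10.5% of all genes. The log2 fold change of Mrc1 was -0.65 without sham 1 and -1.87 without TAC 2. In edgeR 4 of the 8 were at an unadjusted p under 0.05, against 27.5% of all genes. The lowest adjusted p were those of Mrc1 (0.0912) and Csf1r (0.115). Their summed levels ran from 228 to 318 CPM in TAC and 392.3 to 485.2 in sham for endothelial genes, from 100.1 to 139.1 and 178.9 to 249.4 for fibroblast genes, from 161.1 to 275.7 and 377.3 to 389.6 for mural genes, and from 24.64 to 42.12 and 42.95 to 86.34 for macrophage genes. No gene of these lists was at 0 in any library. Endothelial, fibroblast and macrophage sums were highest in sham 1, and the mural sum in sham 2 (389.6 against 377.3 CPM in sham 1). Of 9 cardiomyocyte markers 0 were called in edgeR and 3 each in DESeq2 and limma voom. At an unadjusted p under 0.05 in edgeR there were 3, against 27.5% of all genes. The lowest adjusted p were those of Actn2 (0.0582) and Ryr2 (0.0640). The sum over the 9 cardiomyocyte markers was also highest in sham 2. In bulk samples such as these, fewer cells of a type and less RNA per cell cannot be told apart, and the part of other cell types, of the immediate early and glucocorticoid responses and of the mitochondrial share in the clock values was not tested. The time of day of heart collection is not given for any library, so its part in the clock values was not tested either.

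**Figure D5:**
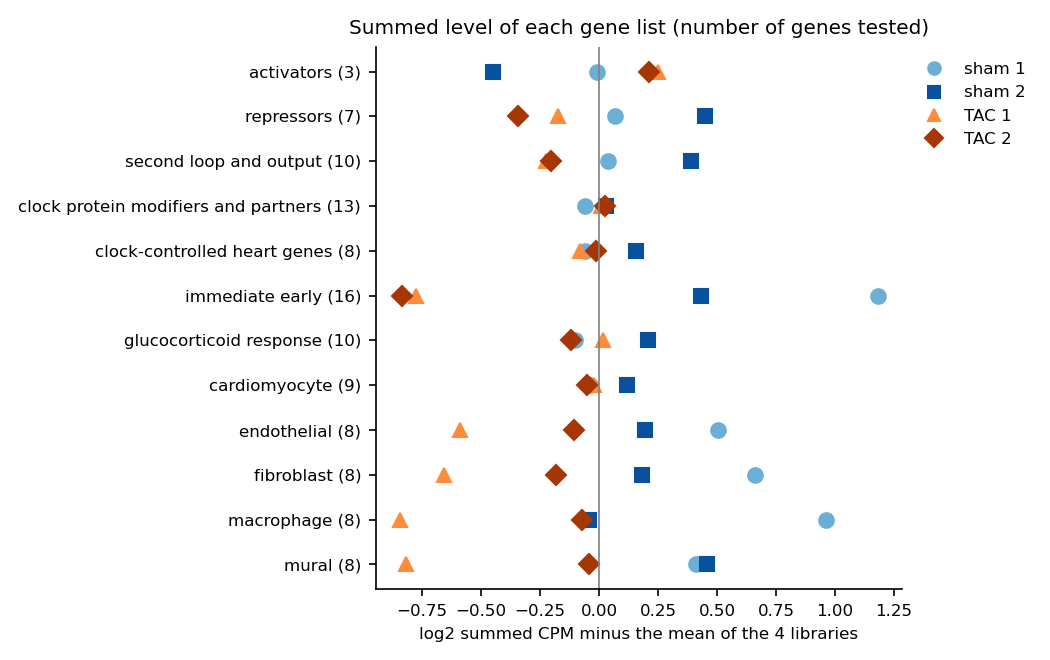
Log2 of the summed CPM of each gene list in each library minus the mean of the 4 libraries, with the number of genes tested in parentheses. On the sham side, sham 2 is outermost for activators, repressors and the second loop, and it also has the highest sum for clock protein modifiers, clock-controlled heart genes, glucocorticoid response, cardiomyocyte and mural genes. Sham 1 has the highest sum for immediate early, endothelial, fibroblast and macrophage genes.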

How the data were processed

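RNA-seq was performed by the authors on cardiomyocytes of 2 sham and 2 TAC mice. The deposited values are an expected count per gene, which is an estimate and may be fractional, and an FPKM (fragment count scaled by transcript length and library size), both made by the authors per library. The submitters' processing notes name Bowtie2 2.2.8, StringTie 1.3.1 and the build mm10, with no role. No source used here states the counter or its use of strand. Groups came from the labels.

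Counts were rounded, filtered with filterByExpr, scaled by TMM and tested in R 4.3.3 with edgeR 4.0.16 (glmQLFit and glmQLFTest, Benjamini-Hochberg over 12499 genes, called at an adjusted p under 0.05). CPM values use TMM-scaled totals. An SE is the log2 fold change divided by the square root of F. With 2 against 2 libraries an exact permutation test cannot go below p = 0.333, so the p-values rest on a spread pooled over genes. The scripts were tested on simulated data. DESeq2 1.42.0 and limma 3.58.1 (voom on counts, and log2 of FPKM plus 0.1 or 1) were alternatives, with total-count and upper-quartile scaling, no low-count filter, a replicate block and each library left out. A total count without mitochondrial genes was added after seeing the data.

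All 10 members are named. From each further list the called genes are named, or the 6 with the largest fold change if more were called, or the 2 with the lowest adjusted p if none was. Ciart and sums over the marker and response lists are given in addition and were chosen after their values were seen. The members and lists were chosen with earlier results of these data known. One gene of the second loop list is not reported here. Gene positions are from GENCODE M21 (GRCm38, the same assembly as mm10) and promoters from RefSeq.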

Additional observations from a re-analysis of the deposited data

How the results depend on the processing

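All 10 core clock genes kept the sign of their log2 fold change in the 13 alternatives and in the exchanged pairing. The number called was 2 with edgeR and TMM, where 5.01% of all genes were called. It was 4 with total-count scaling (Per3, Cry2, Bhlhe40 and Bhlhe41, beside 4.25% of all genes, whose median moved to -0.20), 1 with upper-quartile scaling (Per3, 4.39%), 4 with DESeq2 (Per3, Cry1, Cry2 and Bhlhe41, 7.92% of the genes with an adjusted p), 1 with limma voom (Cry1, 5.54%) and 7 without the low-count filter (10.5%). It was 0 with limma on log2(FPKM + 0.1) and 0 on log2(FPKM + 1), beside 1.56% and 1.71% of all genes. Each of these 2 fits had 9 members at an unadjusted p under 0.05, against 21.1% and 21.4% of all genes. The number called in edgeR was 4 at an adjusted p under 0.1 (beside 14.5% of all genes) and 10 at an unadjusted p under 0.05 (beside 27.5%), the latter added after seeing the data. Leaving out a library gave 0 to 7 calls. These fits assume that a lone library varies like those of the other group. The cause of these differences was not tested.

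Total counts without the mitochondrial genes, also added after seeing the data, gave 2 calls (Per3 and Cry2, beside 5.10% of all genes) and moved the median of all genes to -0.11. The replicate block gave 3 calls (Arntl, Per3 and Cry2, beside 4.53%). The methods of the study speak of pairs of sham and TAC mice without saying which libraries form a pair or what they share. Deviations from the group mean had a correlation of -0.242 between same-numbered libraries and 0.242 with exchanged numbers. With 2 libraries per group these values are equal and opposite by construction, so they cannot show whether libraries were paired. An exchanged pairing, added after seeing the data, gave 6 calls (beside 17% of all genes). Among comparisons of a single member with an alternative, 97 kept their side of the threshold, 19 passed it anew and 14 lost it. With limma on both FPKM scales 0 fibroblast and 0 mural markers were called. Counts were lowest for Npas2 in the sham libraries (72 and 43) and for Per2 in the TAC libraries (48 and 69), where counting error is widest.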
